A study of Mus musculus with 32 samples.

Results

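Immediate early genes and related stimulus-response genes were followed in the eye, brain and heart of sighted C3H mice. They were all genes on the array whose symbol belonged to the Egr, Fos, Jun, Ier, Nr4a, Klf, Dusp, Btg or Gadd45 families, or was Atf3, Arc, Zfp36 or Cyr61. This rule found 46 genes on 62 probes, out of 9030 named genes on 20794 probes. Of these genes, 45 matched by their symbol and 1, Ccn1, by its older symbol Cyr61. The array held 13 of them on several probes and 33 on 1 probe. Klf2 was measured in too few replicates of every organ to be tested, which left 45 genes in eye and 45 in brain. In heart 7 genes were not tested, Klf2, Klf13, Fosb, Nr4a1, Dusp1, Dusp12 and Dusp26, which left 39.

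On each of the 32 two-colour arrays, RNA of a sighted C3H mouse organ was hybridised together with RNA pooled from the same organ of 6 male C3H.pde6b- control mice. The design text names the sighted line C3H seh and speaks of 6 males. No age is given in the sources used here. There were 12 arrays of eye, 12 of brain and 8 of heart, and the pools for brain and heart came from the same control mice, while the eye pool came from others. Pde6b encodes a subunit of the rod phosphodiesterase, and mice without it lose their rods. The pool is 1 control sample per organ, so the spread between control mice is not in any test. Each value is the log2 of the ratio between sighted and control RNA, and a negative value means less RNA in the sighted organ than in the control pool. Arrays that carried the sighted RNA in opposite dyes were averaged in consecutive pairs, which gave 6 replicates of eye, 6 of brain and 4 of heart. Arrays are not tied to single mice in the labels, so a p-value here measures the spread between samples that may in part be technical.

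The direction of the ratio is likely and not stated by the labels. It rests on rod genes, whose median on an eye array lay between 5.23 and 5.76 where the sighted RNA was in Cy5 and between -5.66 and -4.30 where it was in Cy3. Brain and heart hold no such check, and their organ identity cannot be checked from ratios. Brain array 3 is labelled Cy5 in its sighted and in its control channel, and its sighted RNA was taken to be in Cy5. Brain array 5 calls its source only sighted. Array medians lay between -0.055 and 0.539 in eye. The share of values missing as deposited ran from 1.62% to 5.10% there and up to 61.6% on heart array 7, the Cy5 array of heart replicate 4.

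Immediate early genes are switched on within minutes of a stimulus, without new protein synthesis. Growth factors, light, synaptic activity or injury reach them through MAP kinases, calcium and cyclic AMP, which act on the serum response factor and on CREB, a factor that binds the sequence TGACGTCA or its core TGACG. Their products include transcription factors (Egr1, the AP-1 factors Fos, Fosb and Junb, the NR4A receptors and Krüppel-like factors) and feedback inhibitors such as the MAP kinase phosphatase Dusp1 and the mRNA-destabilising protein Zfp36. In the retina, Fos and Egr1 are known to respond to light and to damage.

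The promoters of 38 of the 46 genes were found in RefSeq's mouse table (GRCm38.p6). Klf5 and Ier2 were among the genes without an entry. The stretches below show the 160 bases before the start site, 5′ to 3′ on the gene's own strand, of 5 genes that were lower in sighted eye and of 2 that were higher. They were chosen because the first set spans the AP-1, NR4A and phosphatase genes, and the second shows that the same letters also stand before a gene that went the other way. Capitals mark TGACG, read as CGTCA where it lies on the other strand, and mark the whole of TGACGTCA where both meet. Their places are chr12:85473730-85473889 on the plus strand, and on the minus strand chr8:84978749-84978908, chr7:19310046-19310205, chr2:57124004-57124163, chr17:26508473-26508632, chr7:142095285-142095444 and chr11:84068358-84068517, in the order printed.
Fos: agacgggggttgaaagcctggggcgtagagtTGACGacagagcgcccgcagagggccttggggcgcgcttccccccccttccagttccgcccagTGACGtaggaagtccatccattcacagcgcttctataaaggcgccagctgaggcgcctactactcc
Junb: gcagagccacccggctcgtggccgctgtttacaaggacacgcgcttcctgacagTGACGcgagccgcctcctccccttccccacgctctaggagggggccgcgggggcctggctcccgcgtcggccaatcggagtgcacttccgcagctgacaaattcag
Fosb: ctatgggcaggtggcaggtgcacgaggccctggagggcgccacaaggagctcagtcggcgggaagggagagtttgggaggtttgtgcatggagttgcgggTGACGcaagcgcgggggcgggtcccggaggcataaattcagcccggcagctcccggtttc
Nr4a2: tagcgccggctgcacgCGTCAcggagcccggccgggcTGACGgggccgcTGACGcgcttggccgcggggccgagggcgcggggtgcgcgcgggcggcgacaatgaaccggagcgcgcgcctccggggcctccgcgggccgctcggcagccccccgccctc
Dusp1: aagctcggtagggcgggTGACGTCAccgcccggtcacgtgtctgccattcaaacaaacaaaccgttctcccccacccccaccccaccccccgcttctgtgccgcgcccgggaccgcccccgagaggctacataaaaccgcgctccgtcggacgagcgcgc
Dusp8: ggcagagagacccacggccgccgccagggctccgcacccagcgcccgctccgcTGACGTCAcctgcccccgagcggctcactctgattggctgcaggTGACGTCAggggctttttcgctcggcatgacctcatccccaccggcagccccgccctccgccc
Dusp14: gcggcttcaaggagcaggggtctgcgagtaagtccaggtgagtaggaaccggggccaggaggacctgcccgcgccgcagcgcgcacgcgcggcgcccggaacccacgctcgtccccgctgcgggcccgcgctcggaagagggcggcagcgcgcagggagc

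In the Fos stretch the core nearest to the start began 66 bases before it and a second one 129 bases before it. Junb held a single core 106 bases before its start and Fosb a single core 60 bases before its start. Nr4a2 held 3 cores in the stretch. Dusp1 held a full TGACGTCA that began 143 bases before the start, and Dusp8, which was higher in sighted eye, held full copies at 107 and 63 bases. Dusp14, also higher, held no match in the stretch shown.

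Over 250 bases before the start and both strands, TGACG stood in 17.8% of all 32851 promoters and before 17 of the 38 genes with an entry. A gene counted when any of its promoters matched, so these counts of genes are not on the same footing as the share of promoters. TGACG was found in 9 of 13 genes that were lower in sighted eye and in 4 of 6 that were higher. The full TGACGTCA, which contains TGACG on both strands, stood in 1.55% of all promoters and in 3 of these genes, namely Dusp1, which was lower, and Btg2 and Dusp8, which were higher. The CArG box, the binding sequence of the serum response factor, stood in 1.47% of all promoters and in 1 of these genes, Zfp36, where it began 58 bases before the start. The AP-1 sequence TGANTCA stood in 6.75% of all promoters and in 2 of these genes, TATAAA in 12.4% and 6, and CCAAT in 33.8% and 20. These are matches of letters in a fixed window and not shown binding sites. Genes without an entry were not searched, and sites further upstream than 250 bases were not seen. For Egr1 no match was listed, and a missing entry and a missing sequence are not told apart there.

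In eye, 22 of the 45 genes tested passed the threshold, an adjusted p of 0.05 over all genes (limma with Benjamini-Hochberg adjustment). Of these, 16 were lower and 6 were higher in sighted eye. Over all 15874 genes tested, 26.8% passed, with 11% lower and 15.9% higher, so 35.6% of these genes were lower and 13.3% higher against that background. Their median ratio was -0.23, and that of all genes was 0.03. The lower genes included the transcription factors Egr1, Junb, Fosb, Fos, Jun, Atf3, Klf4, Klf5, Nr4a1 and Nr4a2 and the phosphatase Dusp1. In whole eyes, fewer cells that express a gene and less RNA in each cell cannot be told apart.

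**Figure D1:**
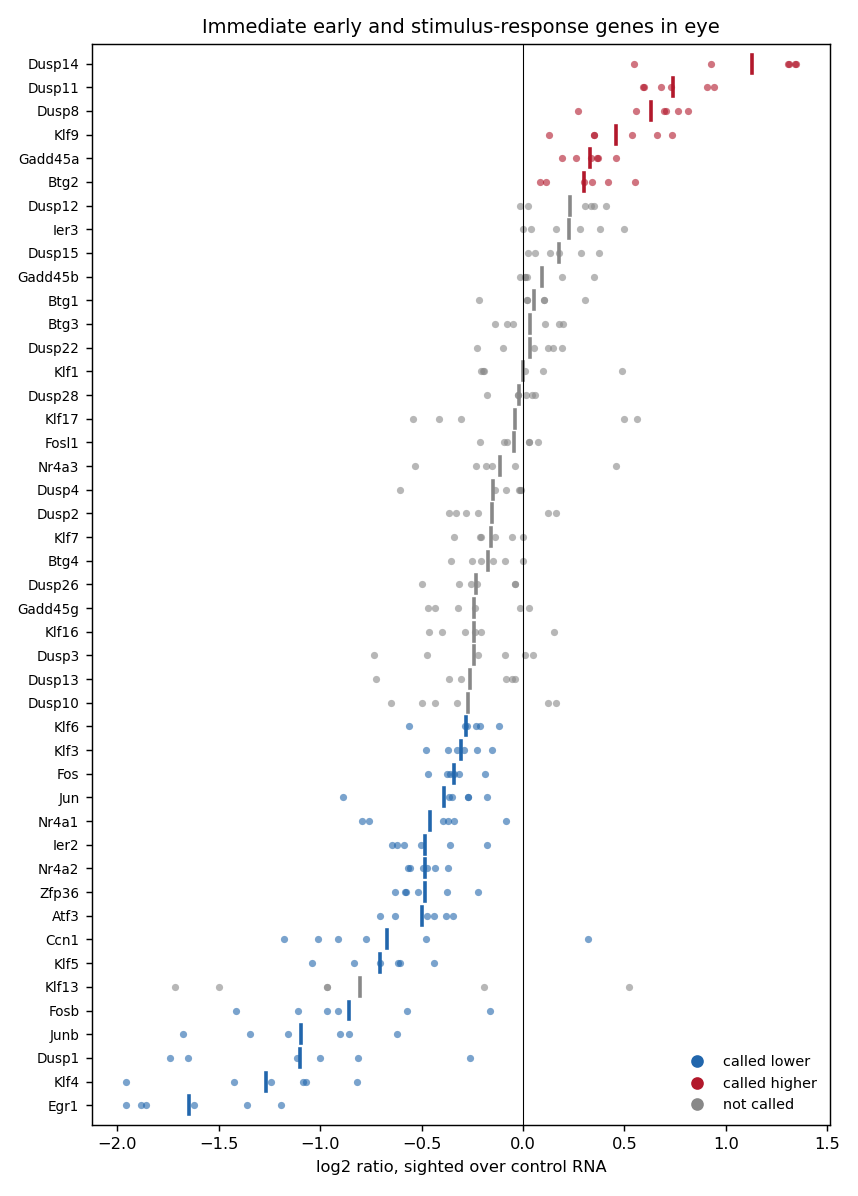
Log2 ratio of sighted over control RNA (horizontal axis) of the 45 genes tested in eye, sorted by their mean. Points are the replicates, bars their means, and colour shows the call: Egr1 at -1.65 and Dusp14 at 1.13 are the ends of the range, and the 6 points of every called gene but Ccn1 lie on 1 side of 0.

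The medians of the whole set ran from -0.34 in eye replicate 2 to -0.0015 in eye replicate 3, while the median of all genes in the same replicates ran from -0.10 to 0.14. In each of the 6 eye replicates the median of these genes lay below that of all genes.

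Egr1, a zinc finger factor induced by growth factors and neuronal activity, was the gene furthest below 0. Its log2 ratio in the eye replicates ran from -1.96 to -1.19 with a median of -1.74. All 6 replicates were low, and the mean was -1.65 ± 0.31 (SD, n = 6), or 3.13-fold lower in sighted eye (limma, adjusted p = 2.52e-05). On all 12 eye arrays its ratio was below 0. No other Egr gene matched the rule.

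Among the AP-1 factors, which bind DNA as pairs of Fos, Jun and ATF proteins, 5 of 6 genes fell and none rose. The shares over all genes tested in eye were 11% lower and 15.9% higher. Junb, a Jun protein that often restrains growth, ran from -1.68 to -0.62 with a median of -1.03, and all replicates were low (mean -1.09 ± 0.38 SD, n = 6, limma adjusted p = 0.000574). Fosb, a Fos protein known for its lasting forms after repeated stimulation, ran from -1.41 to -0.16 with a median of -0.94 (mean -0.86 ± 0.44, adjusted p = 0.00354). Atf3, a factor induced by injury and cell stress, ran from -0.71 to -0.35 with a median of -0.46 (mean -0.50 ± 0.14, adjusted p = 0.00113). The spread of Fosb was the widest of these and its highest replicate came close to 0. Jun, the founding member of the family and a target of the stress kinase JNK, ran from -0.89 to -0.18 with a median of -0.31 (mean -0.39 ± 0.25, adjusted p = 0.0183). Fos, the classic marker of stimulated cells, ran from -0.47 to -0.19 with a median of -0.35 (mean -0.34 ± 0.09, adjusted p = 0.00329). Fosl1, also called Fra-1, lay on both sides of 0, from -0.21 to 0.08 with a median of -0.03, and did not pass the threshold (adjusted p = 0.662).

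The NR4A receptors are nuclear receptors that act without a known ligand and are controlled by their own induction. Nr4a2 had the narrowest spread of all called genes, with replicates from -0.57 to -0.37, a median of -0.48 and a mean of -0.48 ± 0.08 (limma, adjusted p = 0.000482). Nr4a1 ran from -0.79 to -0.08 with a median of -0.38 (mean -0.46 ± 0.27, adjusted p = 0.0109). Both were below 0 in all 6 replicates. Nr4a3 was below 0 in 5 of 6 replicates, from -0.53 to 0.46 (mean -0.11 ± 0.33), and did not pass.

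Of the 11 Krüppel-like factors, zinc finger proteins that act on GC-rich promoters, 10 could be tested in eye, and 4 fell while 1 rose. Among all genes tested in eye, 11% were lower and 15.9% higher. Klf4, which is abundant in surface epithelia and maintains the cornea, ran from -1.96 to -0.82 with a median of -1.16. Every replicate was far below 0, and the mean was -1.27 ± 0.39, 2.41-fold lower in sighted eye (limma, adjusted p = 0.000321). Klf5, also a factor of proliferating epithelia, ran from -1.04 to -0.44 with a median of -0.66 (mean -0.71 ± 0.21, adjusted p = 0.00054). Klf3, a transcriptional repressor, ran from -0.48 to -0.15 with a median of -0.31 (mean -0.31 ± 0.11, adjusted p = 0.00747). Klf6, induced by injury, ran from -0.56 to -0.12 with a median of -0.26 (mean -0.28 ± 0.15, adjusted p = 0.0185). The Klf6 call was lost without eye replicate 4 (adjusted p = 0.0545) or 5 (0.0511), so it lies at the threshold. Klf9, which is induced by glucocorticoids and thyroid hormone, was the 1 factor that rose, from 0.13 to 0.73 with a median of 0.45 (mean 0.46 ± 0.23, adjusted p = 0.00557). Klf13 had a mean of -0.80 but did not pass, because its replicates ran from -1.71 to 0.52 (SD 0.84, adjusted p = 0.0612). The others that did not pass were Klf1, Klf7, Klf16 and Klf17, with means between -0.24 and 0.00. Klf2 had a value in 2 eye replicates, -0.50 and 0.00, and in 2 heart replicates, -1.08 and 2.74.

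The dual-specificity phosphatases did not move as a group. Of the 5 that act on MAP kinases, Dusp1 fell and Dusp8 rose. Dusp1, induced by stress and growth factors to shut MAP kinases off, ran from -1.74 to -0.26 with a median of -1.06, and all replicates were below 0 (mean -1.10 ± 0.55, 2.14-fold lower, limma adjusted p = 0.00289). Dusp8, which acts on JNK and p38 and is found in brain, ran from 0.27 to 0.81 with a median of 0.70 (mean 0.63 ± 0.20, adjusted p = 0.000778). The inducible Dusp2, Dusp4 and Dusp10 had means of -0.15, -0.15 and -0.27 and did not pass. Among the 9 atypical phosphatases, which lack the MAP kinase docking region, 2 rose and none fell. Over all genes tested in eye, 15.9% were higher and 11% lower. Dusp14, known to restrain T cell signalling, ran from 0.55 to 1.35 with a median of 1.31, which made it the highest of all these genes (mean 1.13 ± 0.33, 2.19-fold higher, adjusted p = 0.000259). Dusp11, a phosphatase that acts on RNA, ran from 0.59 to 0.94 with a median of 0.71 (mean 0.74 ± 0.15, adjusted p = 0.000171). All replicates of both were above 0. The other 7 atypical phosphatases had means between -0.26 and 0.23.

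Of the 7 growth arrest genes, 2 rose and none fell, against 15.9% higher and 11% lower over all genes tested in eye. Gadd45a, which is induced by DNA damage and halts the cell cycle, ran from 0.19 to 0.46 with a median of 0.35 (mean 0.33 ± 0.09, limma adjusted p = 0.00405). Btg2, an antiproliferative target of p53, ran from 0.08 to 0.55 with a median of 0.32 (mean 0.30 ± 0.18, adjusted p = 0.0204). Both lay above 0 in all 6 replicates, but the Btg2 call was lost without eye replicate 1 (adjusted p = 0.061), 3 (0.0625), 4 (0.0574) or 6 (0.0522). Gadd45b, Gadd45g, Btg1, Btg3 and Btg4 had means between -0.24 and 0.09 and did not pass.

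Of the remaining response genes, Zfp36, Ier2 and Ccn1 fell and Ier3 did not pass. Zfp36, which destabilises cytokine mRNAs, ran from -0.63 to -0.22 with a median of -0.55 (mean -0.48 ± 0.16, limma adjusted p = 0.00158). Ier2, a small nuclear protein induced with Fos, ran from -0.65 to -0.18 with a median of -0.54 (mean -0.48 ± 0.18, adjusted p = 0.00242). Both were low in all 6 replicates. Ccn1, a matrix protein induced by serum and by mechanical strain, ran from -1.18 to 0.32 with a median of -0.84 (mean -0.67 ± 0.54, adjusted p = 0.0257). Eye replicate 6 was its only value above 0. Without replicate 6 its adjusted p was 0.00131, and without replicate 1, 2, 3, 4 or 5 the call was lost, at 0.0745, 0.0719, 0.0557, 0.0761 and 0.0661. Ier3, a survival factor, ran from 0.0025 to 0.50 (mean 0.23 ± 0.19, adjusted p = 0.0695).

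Genes with several probes showed how far 1 gene's value depends on the probe. The probes of Fos disagreed, with means of 0.07 ± 0.15 and -0.76 ± 0.20 (SD, n = 6 each). The second of these passed the threshold on its own (limma, adjusted p = 0.000343) and the first did not (adjusted p = 0.505), so the Fos mean of -0.34 describes neither. The Jun probes gave -0.50, -0.60 and -0.06, of which the last spread from -1.39 to 0.45 between replicates. The first 2 passed on their own (limma, adjusted p = 0.00219 and 0.000321) and the last did not (0.887). The 4 Klf3 probes gave -0.71, -0.38, -0.08 and -0.06, and the first 2 of them passed. Both Dusp8 probes passed, at 0.60 and 0.67. Klf9 had probes at 0.27 and 0.65, and its call rests on the second. Ccn1 had probes at -0.58 and -0.77. The first passed on its own (limma, adjusted p = 0.00274). The second, measured in 5 replicates with an SD of 1.13, did not (adjusted p = 0.194). The Klf6 mean rests on 1 probe in some replicates and on 2 in others, and the probe measured in all 6 gave -0.20 (adjusted p = 0.115). Egr1, Junb, Fosb, Klf4, Klf5, Dusp1, Dusp11 and Dusp14 were each measured by 1 probe.

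**Figure D2:**
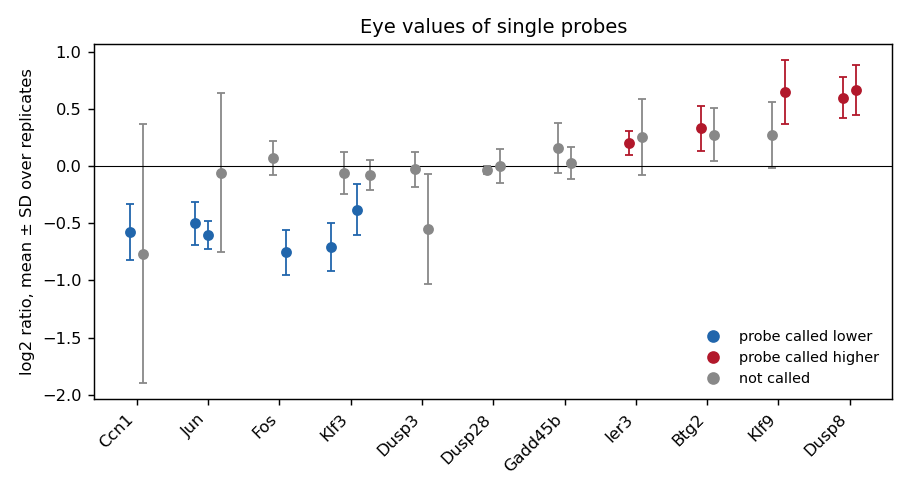
Mean log2 ratio of sighted over control RNA in eye (vertical axis) for each probe of the genes with more than 1 probe tested. Bars are the SD over replicates, and colour shows whether the probe passed on its own: the 2 Fos probes lie at 0.07 and -0.76, while the Dusp8 probes lie side by side at 0.60 and 0.67.

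Each orientation of the dyes was also averaged on its own. Of the 22 called genes, 21 had the same sign in both orientations. The exception was Klf3, at 0.02 with the sighted RNA in Cy5 and -0.63 with it in Cy3. Egr1 lay at -1.32 and -1.97, Junb at -1.31 and -0.88, and Dusp14 at 1.39 and 0.88. Most genes lay lower in the second orientation, and tested on 1 orientation alone, 9 were higher and 10 lower with Cy5, against 1 higher and 25 lower with Cy3. The table of all genes shifted likewise, with 6072 higher and 508 lower with Cy5 alone, against 553 higher and 3394 lower with Cy3 alone. Fos, Jun, Nr4a1, Klf3, Klf6 and Ccn1 did not pass with Cy5 alone, and Klf9, Dusp8, Dusp11, Btg2, Gadd45a and Ccn1 did not pass with Cy3 alone.

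**Figure D3:**
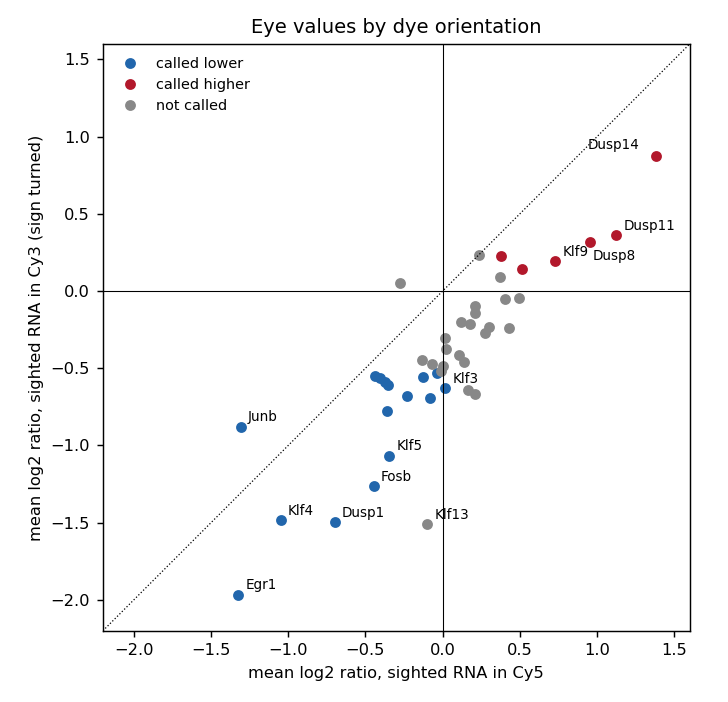
Mean log2 ratio of each tested gene in eye from the 6 arrays with sighted RNA in Cy5 (horizontal axis) and the 6 arrays with it in Cy3 (vertical axis, sign turned), with equality dotted. Egr1 at -1.32 and -1.97 and Dusp14 at 1.39 and 0.88 lie at opposite ends, and most points lie below the dotted line.

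Genes upstream of this response had a median ratio of 0.00 in eye. Of the 20 kinases and transcription factors tested, among them Srf, Elk1 and MAP kinases, 2 rose and none fell by limma, against 15.9% higher and 11% lower over all genes. The risers were Mef2c at 0.79 ± 0.27 (limma, adjusted p = 0.000714) and Mef2d at 0.53 ± 0.16 (adjusted p = 0.00106), factors that link calcium to transcription. Of 29 other stimulus-induced genes, 17 fell and 2 rose, with a median of -0.30. The 4 falling genes with the smallest p were Hbegf, an EGF-like growth factor, at -0.77 ± 0.15 (adjusted p = 0.000131), the MAP kinase-activated factor Ets2 at -0.69 ± 0.14, the cell cycle inhibitor Cdkn1a at -0.62 ± 0.14 and the Notch target Hes1 at -0.85 ± 0.28. The 2 that rose were the pseudokinase Trib1 at 0.53 ± 0.21 and the bZIP factor Nfil3 at 0.27 ± 0.14.

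Markers of several cell types also differed from the control pool in eye. Of all genes tested there, 11% were lower and 15.9% higher. All 4 tested rod markers rose, with a median of 5.23 and replicate medians from 4.89 to 5.44. Of 11 cornea and surface epithelium markers 10 fell and none rose (median -1.01, replicate medians -1.50 to -0.71), Krt15 at -0.86 and Tkt at -1.01 among them. Klf4 and Klf5 are known from these epithelia as well. Of 12 skeletal muscle markers 11 fell and 1 rose (median -0.98, replicate medians -1.29 to -0.51), including Actn3 at -1.18 and Ckm at -1.13. Of 14 immune cell markers 10 fell and none rose (median -0.43, -0.67 to -0.28), including H2-K1 at -1.01 and Lgals3 at -0.85. Of 6 fat markers 4 fell (median -0.48, -0.76 to -0.29), Car3 at -0.80 and Fabp4 at -0.70 first. All 3 red cell markers fell (median -1.22, -1.85 to -0.70), Alas2 at -1.22 and Slc4a1 at -0.43 among them. The rest moved less, since 1 of 7 fibroblast markers rose (Fbln1 at 1.98, median 0.03), 1 of 7 endothelium markers rose (Kdr at 0.64, median -0.10), and of 6 neuron markers 2 rose, Camk2a at 0.61 and Syt1 at 0.38, and 1 fell (median 0.07). Of 6 cardiomyocyte markers 3 fell (median -0.26), including Actc1 at -0.68 and Tnni3 at -0.53. The part of these cell types in the lower response genes was not tested.

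**Figure D4:**
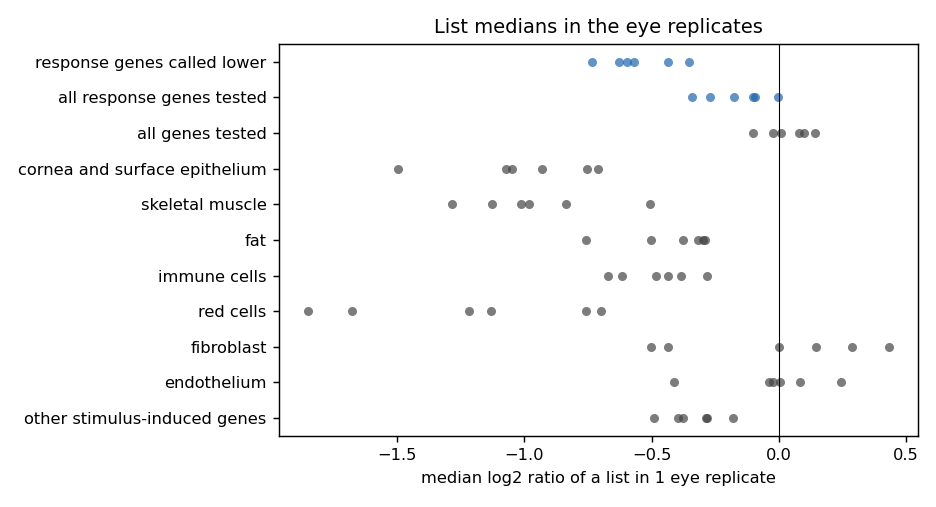
Median log2 ratio of sighted over control RNA of each gene list (horizontal axis) in each of the 6 eye replicates (points). The response genes called lower, shown as a description because their call chose them, had replicate medians from -0.73 to -0.35, and the cornea and surface epithelium markers had -1.50 to -0.71.

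In brain, 0 of the 45 genes tested passed the threshold by limma, against 0.00621% of all genes, which is 1 gene of 16112. At an unadjusted p under 0.05 there were 657 genes, of which 1 was in this set. On a single dye orientation 2 of the set passed with the sighted RNA in Cy5, where 736 of all genes passed, and 0 with it in Cy3, where 1327 of all genes passed. The medians were 0.0015 for these genes and -0.0035 for all genes. The gene with the smallest p was Nr4a1, with replicates from -0.55 to 0.05, a median of -0.30 and 5 of 6 below 0 (mean -0.27 ± 0.23, adjusted p = 0.959). Next came Dusp22 (0.19 ± 0.21), Dusp14 (0.31 ± 0.40), Dusp12 (-0.20 ± 0.26) and Nr4a3 (-0.15 ± 0.17), all at the same adjusted p of 0.959.

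Most of the genes called in eye lay near 0 in brain. Klf4 averaged 0.00 ± 0.15, Dusp8 0.03 ± 0.10, Jun 0.01 ± 0.08, Klf9 0.01 ± 0.15, Klf6 -0.01 ± 0.15, Atf3 -0.01 ± 0.16 and Fos 0.03 ± 0.30. Junb averaged -0.12 ± 0.26, Nr4a2 -0.10 ± 0.14, Ier2 -0.04 ± 0.16, Gadd45a -0.06 ± 0.23, Klf5 0.10 ± 0.24, Klf3 0.04 ± 0.10, Zfp36 0.06 ± 0.16, Ccn1 0.03 ± 0.25, Dusp11 0.03 ± 0.41 and Btg2 0.23 ± 0.32. Replicates of each of these lay on both sides of 0. Egr1, Fosb and Dusp1 were the widest: Egr1 ran from -1.14 to 0.25 with a median of -0.16 (mean -0.27 ± 0.50). Fosb ran from -1.96 to 0.03 with a median of -0.17 (mean -0.42 ± 0.77), and replicate 5 stood alone at the low end. Dusp1 ran from -0.73 to 0.26 over 5 replicates (mean -0.19 ± 0.47). Fosl1 averaged -0.07 ± 0.21.

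In heart, 0 of the 39 genes tested passed by limma, as did 0% of the 12755 genes tested, while 1042 genes and 5 of this set had an unadjusted p under 0.05. Of the 39, 19 had all 4 replicates and 20 had 3. The medians were -0.05 for these genes and -0.01 for all genes. Egr1, the gene of this set with the smallest p in heart, lay on the other side of 0 from eye. Its 3 heart replicates were 0.68, 1.19 and 0.95 (mean 0.94 ± 0.25, limma unadjusted p = 0.00358, adjusted p = 0.568). They lay above every eye and brain replicate, and the share of all genes without such overlap was not counted. Its 3 Cy5 arrays averaged 1.23 and its 4 Cy3 arrays 0.144. The ratio was above 0 on 6 of these arrays and below 0 on 1. The array below 0 was the Cy3 array of replicate 4, which had no Cy5 value beside it. It was neither in the mean nor in the comparison with eye and brain replicates. Egr1 passed only when the 20% of genes with most spread were left out, at an adjusted p of 0.025, where 53 genes in all passed.

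Klf9 was above 0 in all 4 heart replicates, at 0.38, 0.85, 0.48 and 1.06 (mean 0.69 ± 0.32, limma unadjusted p = 0.00615, adjusted p = 0.568). Zfp36 was also above 0 in each, at 0.36, 0.55, 0.08 and 1.24 (mean 0.56 ± 0.50, adjusted p = 0.568). Nr4a2 was below 0 in its 3 replicates, at -0.27, -0.52 and -0.94 (mean -0.58 ± 0.34). On single arrays it was below 0 on 5 and above 0 on 2. Its Cy3 array of replicate 4 lay above 0, lacked a Cy5 value beside it and was not in the mean. Gadd45b was below 0 in all 4 replicates, at -0.17, -0.32, -0.30 and -0.53 (mean -0.33 ± 0.15). None of these passed the threshold. Klf9, Zfp36 and Gadd45b lay furthest from 0 in replicate 4, whose Cy5 array had 61.6% of its values missing. Klf9 and Gadd45b rested on 1 probe there.

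The other genes called in eye had heart means without a common direction. Fos averaged 0.23 ± 0.18, Klf6 0.27 ± 0.28, Gadd45a 0.16 ± 0.43, Dusp8 0.12 ± 0.26, Klf3 0.10 ± 0.32, Btg2 0.09 ± 0.28 and Dusp11 0.19 ± 1.71. Junb averaged -0.05 ± 0.18, Klf4 -0.03 ± 0.23, Ccn1 -0.08 ± 0.45, Atf3 -0.10 ± 0.89, Ier2 -0.16 ± 0.48, Jun -0.22 ± 0.36, Dusp14 -0.22 ± 1.24 and Klf5 -0.23 ± 0.20. The SDs of Dusp11, Dusp14 and Atf3 in heart were several times their means. Fosb had 2 heart replicates, -0.48 and -1.82, Nr4a1 had 1, at 1.10, and Dusp1 had 1, at -0.13, so they were not tested. Fosl1 averaged -0.26 ± 0.12 over 3 replicates. The cell type lists had no called gene in brain or heart, with medians from -0.03 to 0.07 in brain and -0.18 to 0.34 in heart, and neither had the upstream list (medians -0.04 and 0.04) or the other stimulus-induced list (-0.02 and 0.04).

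The difference between eye and brain was tested itself, with each organ's own spread. Of the 45 genes, 18 differed, 12 lower and 6 higher in eye, against 18.4% of all 15499 genes tested, of which 7.14% were lower and 11.3% higher. Of the 18, 17 were also called in eye. Klf4 differed by -1.27 ± 0.15 (SE, limma variances, adjusted p = 8.75e-05), Egr1 by -1.37 ± 0.20 (adjusted p = 0.00029), Junb by -0.98 ± 0.16 (adjusted p = 0.000565) and Klf5 by -0.81 ± 0.12 (adjusted p = 0.000195). All eye replicates of Klf4, Junb and Klf5 lay below all brain replicates, and for Egr1 the lowest brain replicate, at -1.14, stood just above the highest eye replicate, at -1.19. This only describes genes already called by that test, and the share of all genes without overlap was not counted. Dusp1 (-0.90), Ccn1 (-0.70), Zfp36 (-0.54), Atf3 (-0.49), Ier2 (-0.44), Jun (-0.39), Nr4a2 (-0.39) and Klf3 (-0.34) were the other genes lower in eye than in brain. Higher in eye were Dusp14 (0.82 ± 0.18), Dusp11 (0.71 ± 0.16), Dusp8 (0.60 ± 0.10), Klf9 (0.45 ± 0.11), Dusp12 (0.43 ± 0.12) and Gadd45a (0.39 ± 0.11).

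Dusp12 was called in the difference and in neither organ alone, with means of 0.23 in eye and -0.20 in brain. Conversely, Fos, Fosb, Nr4a1, Klf6 and Btg2 were called in eye while their difference from brain was not: it was -0.37 for Fos (adjusted p = 0.0595), -0.43 for Fosb (0.365), -0.19 for Nr4a1 (0.372), -0.27 for Klf6 (0.0656) and 0.07 for Btg2 (0.784). Some calls of the difference hung on a single replicate number, left out of both organs. Gadd45a was lost without number 1 (adjusted p = 0.0827) or 4 (0.0725), Jun without 3 (0.0598) or 6 (0.0576), Dusp1 without 3 (0.0521) or 4 (0.0725) and Dusp12 without 3 (0.0796) or 5 (0.0822). Ccn1 was lost without number 1 (0.0751), 2 (0.0737), 3 (0.055), 4 (0.131) or 5 (0.103).

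**Figure D5:**
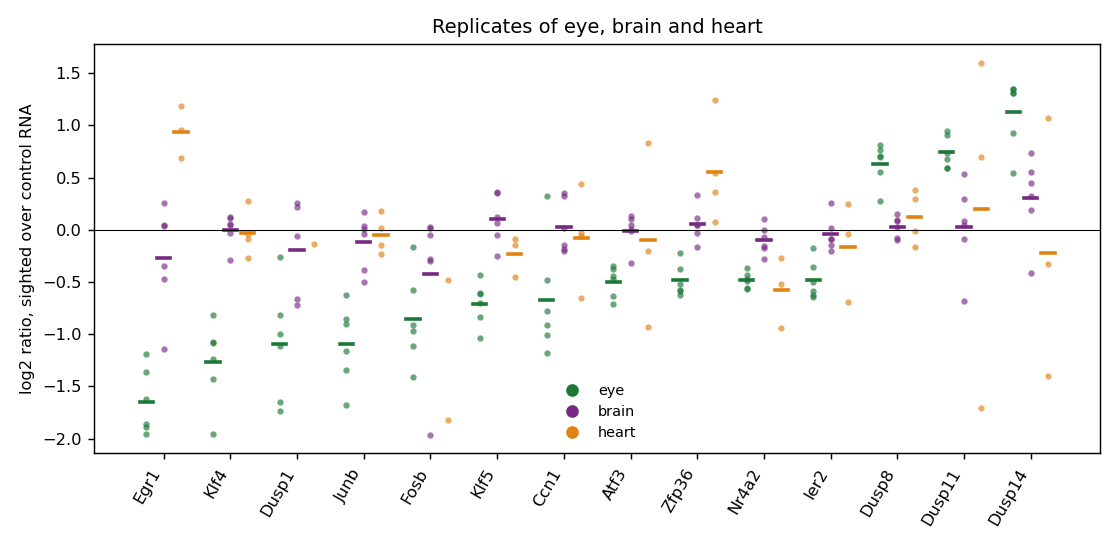
Log2 ratio of sighted over control RNA (vertical axis) of the 14 genes furthest from 0 among those called in eye, by replicate of eye, brain and heart. Points are replicates and bars means of at least 3 of them. Egr1 lies between -1.96 and -1.19 in eye and between 0.68 and 1.19 in its 3 heart replicates. Klf4 and Junb in eye lie below both other organs.

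Between eye and heart, 4 of 39 genes differed, all lower in eye, against 4.64% of 12547 genes in all, 2.02% lower and 2.61% higher. They were Egr1 at -2.59 ± 0.21 (SE, limma variances, adjusted p = 0.000463), Klf4 at -1.23 ± 0.20 (adjusted p = 0.0046), Junb at -1.05 ± 0.19 (adjusted p = 0.00901) and Zfp36 at -1.04 ± 0.23 (adjusted p = 0.0485). No eye replicate of these 4 genes overlapped a heart replicate. This only describes genes that the test of the difference had already called, and the share of all genes without such overlap was not counted. For Egr1 the lack of overlap rests on 3 heart replicates. The Cy3 array of heart replicate 4, where Egr1 lay below 0, had no Cy5 value beside it and was left out. Zfp36 was lower in eye and its heart replicates were all above 0, but the heart mean did not pass on its own. Without replicate number 1 or 2 only Egr1 was still called. Klf4 then had adjusted p of 0.0967 and 0.0533, and Junb 0.167 and 0.0979. Junb was also lost without number 3 (0.0636), and Zfp36 was lost without any 1 of the 4, at adjusted p from 0.0766 to 0.222. With the replicate number as a block Zfp36 was lost as well (adjusted p = 0.0656), and in the eye and brain comparison Jun (0.0853), Ccn1 (0.0664) and Ier2 (0.0504) were lost. Klf9 lay above 0 in both organs, at 0.46 in eye and 0.69 in heart, and the difference of -0.23 did not pass (adjusted p = 0.51).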

How the data were processed

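RNA of eye, brain and heart was reverse transcribed, labelled indirectly with Cy3 or Cy5 and hybridised against a control pool, per the labels' protocols. The deposited values are log2 ratios within an array. The log base was inferred from the top value of 16.61, the log2 of 100000, on the eye arrays, and such repeated top values (4170 above 15) were treated as missing. The normalization, the background correction and the scanner were not given in the sources used here, and whether arrays were scaled stays unknown.

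The sign was turned on arrays with sighted RNA in Cy3, pairs of consecutive arrays of opposite dye were averaged for each probe, and then the probes of a gene. The pairing is read from the array numbers, and after removal of each orientation's mean the arrays of a pair correlated at 0.0704 on average in eye, 0.00525 in brain and -0.0137 in heart. A gene could miss 1 replicate. Each organ was fitted with limma 3.58.1 in R 4.3.3 against 0, two-sided, with Benjamini-Hochberg adjustment over all genes at 0.05. Organ differences took each organ's own moderated variance and Welch-Satterthwaite degrees of freedom. Brain and heart shared control mice. Alternatives were single arrays, a random block, centring, scaling, other treatment of missing values, robust moderation, single probes, 1 dye orientation, a filter on spread, left-out replicates, a shared spread and the replicate block. The scripts were tested on simulated data. Same-numbered replicates did not deviate together (correlations from -0.0175 to 0.0178 for eye and brain and from -0.0476 to 0.0531 for eye and heart), so numbers were not taken as pairs.

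The genes, the 2 pathway lists and the 10 cell type lists were chosen with earlier results of these data known. Genes named were, in eye, called genes with 1 sign in every replicate and all Egr, Fos and Jun genes, in brain and heart the same genes and the 5 with the smallest p, and up to 4 called genes of a pathway list and 2 of a marker list. Ccn1, Klf13, Klf2 and other genes outside this rule were named after their values were seen. Gene names came from the platform's probe table, and promoters from RefSeq (GRCm38.p6). Array number limits the precision.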

Additional observations from a re-analysis of the deposited data

Results flagged for a closer look

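Among 109 groups of replicates of these genes, 8 held a replicate that stood apart from the others by Dixon's test at the 95% level, where chance gives about 5% of groups. In eye these were all replicate 2: Jun at -0.89 (others from -0.36 to -0.18), Dusp4 at -0.61 (others from -0.14 to -0.01) and Dusp28 at -0.18 (others from -0.03 to 0.06). In brain they were Atf3 in replicate 6 at -0.32 (others from -0.01 to 0.13), Fosb in replicate 5 at -1.96 (others from -0.30 to 0.03), Jun in replicate 2 at 0.17 (others from -0.06 to 0.01) and Dusp13 in replicate 4 at 0.74 (others from -0.16 to 0.09). In heart it was Fos in replicate 2 at 0.51 (others from 0.12 to 0.16).

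The ratio differed between eye and brain, by the test of the difference itself, for 18 of the 45 genes tested, against 18.4% of all genes. The differences, eye minus brain, were -1.37 for Egr1, -1.27 for Klf4, -0.98 for Junb, -0.90 for Dusp1, -0.81 for Klf5, -0.70 for Ccn1, -0.54 for Zfp36, -0.49 for Atf3, -0.44 for Ier2, -0.39 for Jun, -0.39 for Nr4a2 and -0.34 for Klf3. They were 0.82 for Dusp14, 0.71 for Dusp11, 0.60 for Dusp8, 0.45 for Klf9, 0.43 for Dusp12 and 0.39 for Gadd45a. Between eye and heart the differences were -2.59 for Egr1, -1.23 for Klf4, -1.05 for Junb and -1.04 for Zfp36. These were 4 of 39 genes tested, against 4.64% of all genes. Some calls of both comparisons were lost when a replicate number was left out, as given above.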

How the results depend on the processing

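Of the 22 genes called in eye, 11 kept direction and call in every setting run, and 19 when any 1 replicate was left out. Leaving out 1 replicate gave 19 to 23 genes called in eye, 15 to 19 in eye minus brain and 0 in brain and in heart. The count in eye was 19 with every array on its own (2654 of all genes), 28 with the pair as a random block (4735), 28 on centred arrays (4947) and 31 on scaled ones (5061), against 22 (4259) as reported. With Cy5 alone 6580 of all genes were called. By orientation, Cy5 alone gave 10 of the response genes lower, and Cy3 alone gave 1 higher and 25 lower. Fosl1 (0.12) and Klf3 (0.0165) turned sign with Cy5 alone, as did Dusp12 in brain (0.11), and Fos did on 1 probe (0.0703).

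In brain, Cy5 alone gave 2 response genes, 1 higher and 1 lower. All genes called there were 3 with every array on its own, 4 with the random block, 2 on scaled arrays, 0 with top values kept, 2 with every replicate needed, 736 with Cy5 alone, 1327 with Cy3 alone, 8 without the 20% with most spread and 0 to 1 in leave-outs. Without that 20%, heart had 53 genes called and 1 of the response genes, which was higher. Eye minus heart gave 1 to 3 response genes (1 to 3 lower) and 51 to 350 genes in leave-outs, and a shared spread gave 8 response genes, 2 of them higher, and 1915 genes. With the replicate number as a block, eye minus brain kept 15 response genes and eye minus heart 3, with 203 genes in all. In eye and brain 1 of the replicates, and in eye and heart 1, correlated best with its own number. The cause of these changes was not tested. The number of heart arrays and their missing values limit what could be called there.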
